A study of Mus musculus with 8 samples.

Results

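In mouse macrophages, 2977 stretches of 1 kb carried called peaks of acetylated histone H4 at rest and after the oxysterol 25-hydroxycholesterol (25HC), and lost them when the lipopeptide PAM3 followed 25HC. After PAM3 without 25HC, at least 1 of the libraries kept the call. The stretches were chosen from the deposited peak lists, with chromosomes 1 to 19 divided into 1000 bp bins. A bin counted as called in a library when that library's peaks covered 500 bp or more of it. Member bins were called in all 4 libraries without PAM3, in neither library of 25HC then PAM3, and in at least 1 of the 2 PAM3 libraries. They made up 7.48% of the 39826 bins called in all 4 libraries without PAM3. In all, 115134 bins were called in some library. Of the 39826, 13.5% were called in neither library of 25HC then PAM3 and 9.82% in neither PAM3 library. Because the rule reads the same peaks that are described here, their counts and coverage are a description and carry no test.

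The series profiled acetylated histone H4 by chromatin immunoprecipitation and sequencing (ChIP-seq) in C57BL/6 macrophages grown from bone marrow, with a rabbit polyclonal antibody. The 4 groups had neither agent (untreated), 25HC alone, PAM3CSK4 alone (PAM3), or 25HC and afterwards PAM3. Mouse A and mouse B each gave 1 library to every group, so a group held 2 libraries and the same 2 animals stood behind all 4. The labels give the stimulation time as 0 without PAM3 and 18 with it, with no unit, and give neither the dose nor the length of the 25HC treatment.

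Acetyl groups on the tail of histone H4 loosen the hold of nucleosomes on DNA and are read by bromodomain proteins, and they gather at active promoters and enhancers. 25HC is an oxysterol that macrophages make with the enzyme Ch25h; it activates the liver X receptors and holds back the processing of the sterol regulator SREBP. PAM3CSK4 is a synthetic lipopeptide that activates the Toll-like receptor pair TLR1 and TLR2, which signal through MyD88 to NF-kB.

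Most member bins lay away from gene starts, but the starts of 116 protein-coding genes with a sequence in RefSeq's promoter table fell in members. Predicted genes aside, 26 of these starts were called in all 6 libraries of the other groups and covered by no peak in either library of 25HC then PAM3. The 250 bases before the start are shown for 5 of the 26 as examples, so their motif matches do not describe the rest. The sequences are RefSeq's on GRCm38.p6, written 5′ to 3′ along the gene's strand, and the capitals mark matches to the motifs AP-1 (TGANTCA), C/EBP (TTGCNNAA), E-box (CACGTG) and PU.1 (GAGGAAGT), searched on both strands.
Clec12a, chr6:129349994-129350243, plus strand: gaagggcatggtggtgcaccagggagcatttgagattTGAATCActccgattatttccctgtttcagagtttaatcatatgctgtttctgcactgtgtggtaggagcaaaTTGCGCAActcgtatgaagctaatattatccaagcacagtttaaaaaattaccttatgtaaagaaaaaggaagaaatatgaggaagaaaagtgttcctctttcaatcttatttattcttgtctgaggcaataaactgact
Bach1, chr16:87698704-87698953, plus strand: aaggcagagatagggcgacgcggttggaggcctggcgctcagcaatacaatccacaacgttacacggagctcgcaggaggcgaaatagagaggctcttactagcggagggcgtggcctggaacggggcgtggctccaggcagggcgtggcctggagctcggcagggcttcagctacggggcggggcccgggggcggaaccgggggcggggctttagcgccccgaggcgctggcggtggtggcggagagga
Rpl6, chr5:121204251-121204500, plus strand: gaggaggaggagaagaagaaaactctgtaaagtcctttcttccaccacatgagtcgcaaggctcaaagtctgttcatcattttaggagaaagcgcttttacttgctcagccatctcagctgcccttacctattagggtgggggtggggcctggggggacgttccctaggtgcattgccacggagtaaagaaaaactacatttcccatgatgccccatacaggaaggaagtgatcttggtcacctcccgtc
Prkaca, chr8:83972728-83972977, plus strand: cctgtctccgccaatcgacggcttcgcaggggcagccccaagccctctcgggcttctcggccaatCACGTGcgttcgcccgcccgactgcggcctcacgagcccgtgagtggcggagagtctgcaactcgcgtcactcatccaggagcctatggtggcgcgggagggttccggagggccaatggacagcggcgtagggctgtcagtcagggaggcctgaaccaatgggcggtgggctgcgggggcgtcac
Strada, chr11:106193604-106193853, minus strand: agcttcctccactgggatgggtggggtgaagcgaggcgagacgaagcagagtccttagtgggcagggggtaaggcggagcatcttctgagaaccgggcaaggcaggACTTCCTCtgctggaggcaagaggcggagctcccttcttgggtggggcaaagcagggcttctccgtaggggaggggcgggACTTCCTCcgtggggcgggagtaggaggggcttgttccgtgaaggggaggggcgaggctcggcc
Clec12a, an inhibitory lectin receptor of myeloid cells, has a promoter poor in CpG, with 3 CpG in the 300 bases from 250 before to 50 after the start. Its capitals are an AP-1 match and a C/EBP match. Bach1, a repressor released from DNA by haem, has 31 CpG in the same window and no match to these motifs in the bases shown. Rpl6 encodes a protein of the large ribosomal subunit, and its bases shown hold no match either. Prkaca, the catalytic subunit of protein kinase A, holds an E-box, and Strada, the pseudokinase partner of the kinase LKB1, holds 2 PU.1 matches on the opposite strand. A match is a description of letters and was not tested for binding.

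The 8 libraries had 48446 to 54552 peaks each, and their peaks covered 56.6 to 72.4 Mb, summed over each whole list. The shortest coverage was in PAM3 of mouse A and the longest in PAM3 of mouse B, so the libraries that kept member bins stood at both ends of the range. The 25HC then PAM3 libraries covered 63.5 and 69.6 Mb. Of the 39826 bins, 79.6% were called in PAM3 of mouse A, 84.6% in PAM3 of mouse B, 78.6% in 25HC then PAM3 of mouse A and 80.6% in that of mouse B. Sequencing depth is not in the peak lists, so a missing peak cannot be told apart from a peak below the caller's threshold. All 10 macrophage markers examined, among them Adgre1, Csf1r and Spi1, had peaks in all 8 libraries. Of the 5 T and B cell markers, Cd3g alone had peaks in all 8 and Pax5 and Cd3e had none in any library. Peaks in all 8 libraries were also found at 4 of 5 dendritic cell markers and 2 of 5 neutrophil markers. The same held for 2 of 4 fibroblast and endothelium markers and 0 of 2 erythroid markers. Peaks at such markers were thus not confined to the macrophage list.

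In the libraries without PAM3, peaks covered on average 851 and 841 bp of a member bin in the untreated libraries of mouse A and B, and 804 and 830 bp after 25HC. PAM3 gave 554 bp in mouse A and 692 bp in mouse B. The 25HC then PAM3 libraries gave 149 and 165 bp. The rule sets the low values of the last group below 500 bp and the high values of the first 4 libraries above it; it does not set how far. In 25HC then PAM3, 51.8% of members stood at 0 bp in mouse A and 49.1% in mouse B. PAM3 without 25HC was itself lower than the 4 libraries without it, and 13.4% of members in mouse A and 7.39% in mouse B had no peak there. The rule lets a member miss the call in a single PAM3 library but in no library without PAM3. The choice alone can thus give lower means and 0 bp values in PAM3, and an effect of PAM3 at members was not tested.

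**Figure D1:**
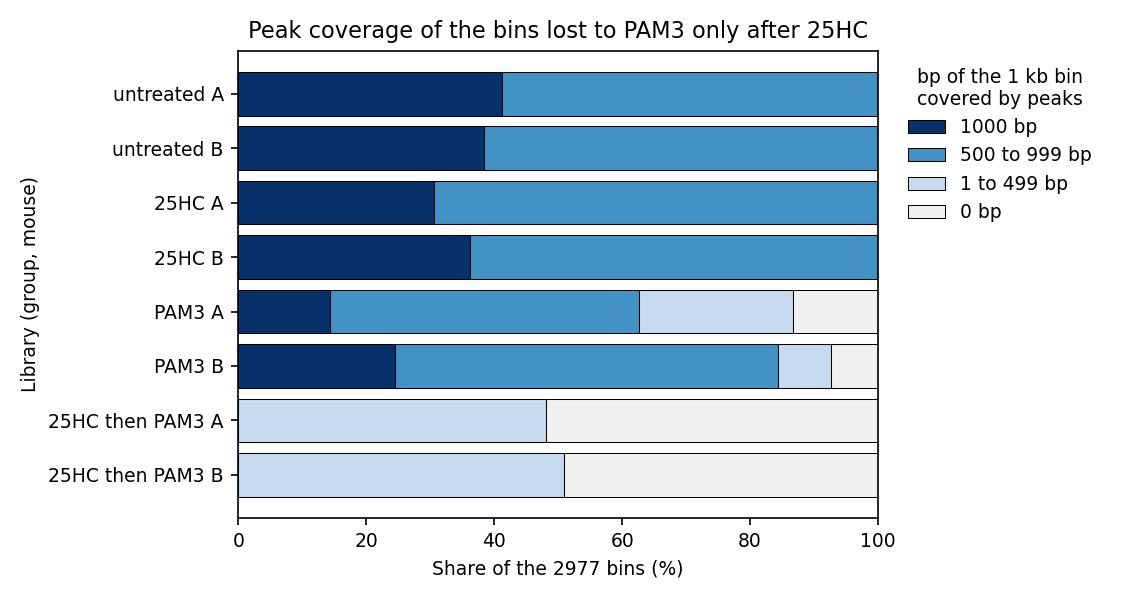
Share of the 2977 member bins (horizontal axis, percent) by the number of bp covered by peaks (colours), for each library (vertical axis, group and mouse). PAM3 libraries keep most members at 500 bp or more, and in the 25HC then PAM3 libraries 51.8% and 49.1% of members have no covered bp.

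Members were kept in both PAM3 libraries in 1399 bins (47.0%), in mouse A alone in 465 (15.6%) and in mouse B alone in 1113 (37.4%). A stricter group within them had calls in both PAM3 libraries and no covered base in either 25HC then PAM3 library, and held 493 bins (16.6% of members). In 74 bins (2.49%), peaks covered all 1000 bp in each of the 6 other libraries and 0 bp in both 25HC then PAM3 libraries. Near the limit, 771 members (25.9%) were at most 100 bp below 500 bp in their better covered 25HC then PAM3 library, and 1990 bins missed membership with less than 100 bp above it there. Likewise 783 members (26.3%) were less than 100 bp above 500 bp in their least covered library without PAM3, and 961 bins missed by 100 bp or less.

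The rule can be turned round to ask for bins lost from both PAM3 libraries and kept in at least 1 library of 25HC then PAM3. There were 1518 such converse bins, 3.81% of the 39826 against 7.48% for the members. A further 2394 bins (6.01%) were lost from all 4 libraries with PAM3, and 24917 (62.6%) were called in all 8. Converse bins were kept in both of their libraries in 46.9% of cases, close to the 47.0% of members. Within single animals the excess was uneven. With mouse A's 4 libraries alone the rule gave 4833 members and 4802 converse bins, and with mouse B's alone 5880 and 3782. After the libraries were trimmed to equal covered length, both mice together gave 2522 and 1185, mouse A gave 5594 and 3361 and mouse B 6652 and 6049. Members thus outnumbered converse bins in each animal, by a ratio between 1.01 and 1.66 that moved with how peaks were trimmed.

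A count of bins missing from a whole group also depends on how often bins go missing from single libraries. Bins called in the other 7 libraries were missing from PAM3 of mouse A alone in 2032 places, from PAM3 of mouse B in 1264, from 25HC then PAM3 of mouse A in 1750 and from that of mouse B in 1426. The 4 libraries without PAM3 each lacked 743 to 959 such bins. Bins missing from both libraries of a group and called in the other 6 numbered 260 for untreated, 320 for 25HC, 712 for PAM3 and 1399 for 25HC then PAM3. Those at 0 bp in both libraries numbered 96, 82, 236 and 493 in the same order. Losses shared by both animals were thus most frequent in 25HC then PAM3, whereas losses from a single library were most frequent in PAM3 of mouse A.

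**Figure D2:**
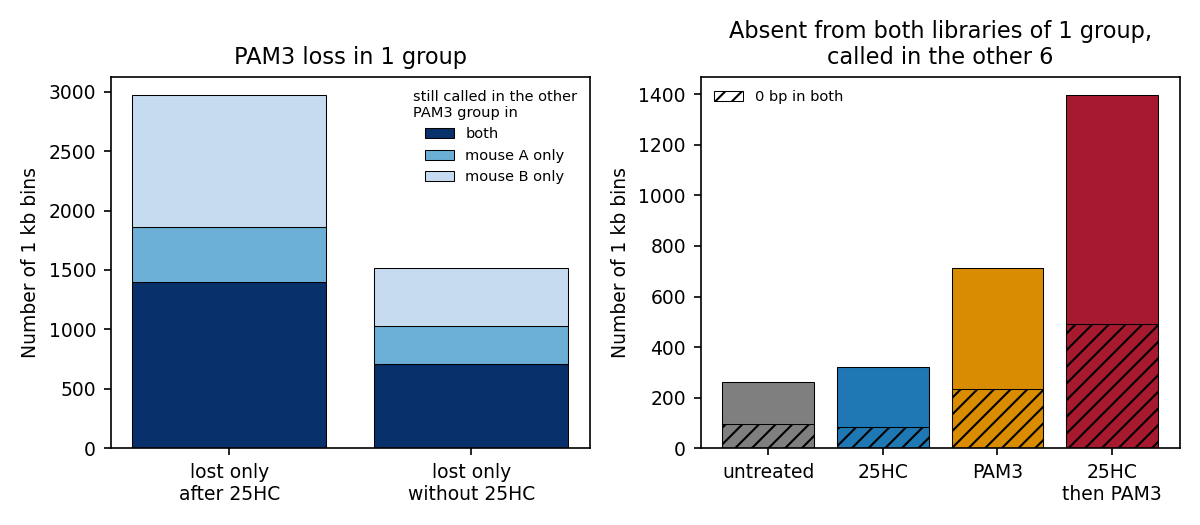
Left, number of 1 kb bins (vertical axis) lost only after 25HC (members, 2977) and lost only without 25HC (converse bins, 1518), coloured by the mice whose libraries kept the call. Right, bins absent from both libraries of a group and called in the other 6 (260, 320, 712 and 1399), with those at 0 bp in both hatched (96, 82, 236 and 493).

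Most member bins stood alone or at the edge of a row of called bins, as most of the 39826 bins did. A stretch is a row of neighbouring bins that were all called in the 4 libraries without PAM3. Of the members, 1263 (42.4%) stood alone as a stretch of 1 bin, 1572 (52.8%) were at the edge of a longer stretch and 142 (4.77%) inside one. The same shares over all 39826 bins were 40.1%, 53.7% and 6.19%, so members took each position about as often as other bins. Of 26658 stretches, 2695 held a member and 1457 consisted of members alone, 1263 of them of 1 bin, 180 of 2 bins, 14 of 3 bins and 0 of more. Both a member and a converse bin occurred in 46 stretches of the 26658.

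In the 6 libraries of the other groups, coverage was lower beside a member than at it. The bin just upstream on the chromosome held on average 434 and 411 bp in the untreated libraries of mouse A and B, 289 and 344 bp in PAM3, and 179 and 188 bp in 25HC then PAM3. At 2 bins upstream the values were 155 and 142 bp untreated and 105 and 114 bp in 25HC then PAM3. At 5 bins downstream the untreated libraries held 85 and 75 bp and the 25HC then PAM3 libraries 75 and 80 bp, which overlapped. At 10 bins downstream they held 109 and 107 bp against 83 and 94 bp. PAM3 without 25HC held 85 and 105 bp there, which overlapped the values of 25HC then PAM3. The rule asks for a difference from the untreated libraries at the member itself and at no other bin, so its peak there was set by the choice. A smaller difference from the untreated libraries was still seen at 10 kb. At that distance it did not set 25HC then PAM3 apart from PAM3. In 25HC then PAM3 a peak still touched the member bin in 48.2% of members in mouse A and 50.9% in mouse B, and the nearest peak was more than 5 kb away for 26.8% and 26.2%.

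**Figure D3:**
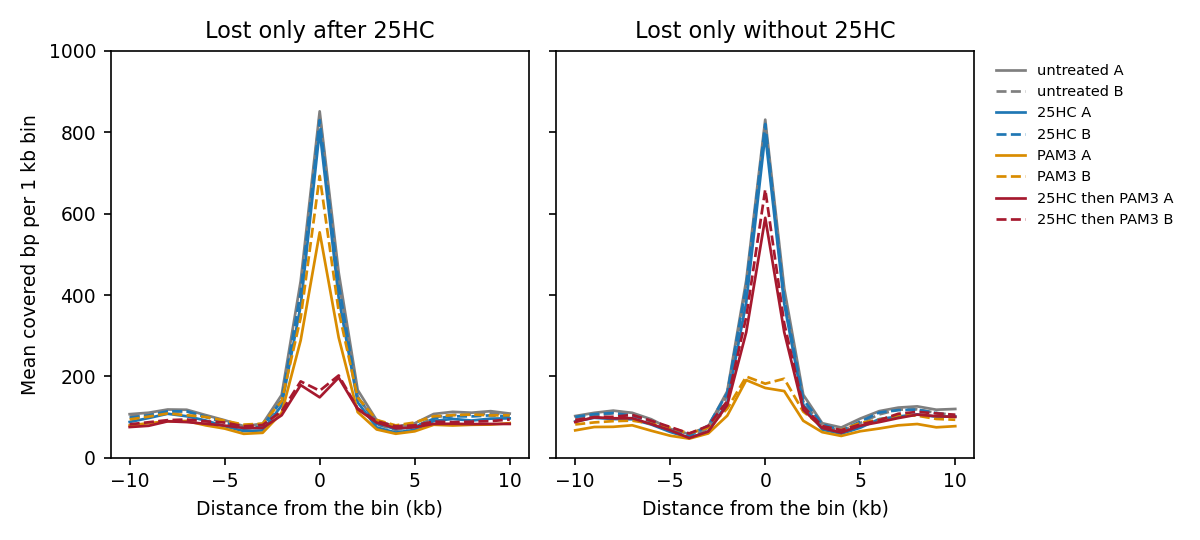
Mean bp covered by peaks per 1 kb bin (vertical axis) against distance from the bin in kb (horizontal axis), a line for each library (dashed for mouse B), around members (left) and converse bins (right). At members, as the rule asks, the 25HC then PAM3 lines are low (149 and 165 bp) where the untreated lines peak (851 and 841 bp). The lines are closer together at 5 kb and 10 kb.

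The peaks at members were of middle strength. Ranked by the authors' q-value within its own list, the peak at a member stood at a median percentile of 50.8 and 52.3 in the untreated libraries, 52.2 and 50.8 after 25HC, and 51.6 and 50.8 after PAM3. For bins called in all 8 libraries the medians were 53.7 to 54.3. These peaks had a median length of 1893 and 1814 bp in the untreated libraries, 1650 and 1793 bp after 25HC, and 1417 and 1650 bp after PAM3. Every autosome held members, from 6.16% of its bins on chromosome 3 to 8.89% on chromosome 18, and the ratio of members to converse bins ran from 1.24 on chromosome 14 to 2.66 on chromosome 12.

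Members were distal by gene annotation. Of the 2977, 421 (14.1%, Wilson 95% interval 12.9 to 15.4, for counting error alone) lay within 1 kb of either end of a protein-coding gene, 51.1% lay elsewhere in a gene and 34.8% outside genes. Among all 39826 bins the shares were 34.1%, 37.7% and 28.1%, and among bins called in all 8 libraries 42.5%, 32.3% and 25.2%. The converse bins and the bins lost from all 4 libraries with PAM3 were placed much like the members, with 16.9% and 12.9% near a gene end. The median distance to a gene end was 14509 bp for members and 3443 bp for bins called in all 8. With peaks of −log10 q of at least 5 alone, the rule gave 1846 bins, of which 532 were among the 2977. Of those 1846, 35.5% lay near a gene end, beside 38.3% of all bins then called in the 4 libraries without PAM3, so the contrast was much smaller in that set.

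**Figure D4:**
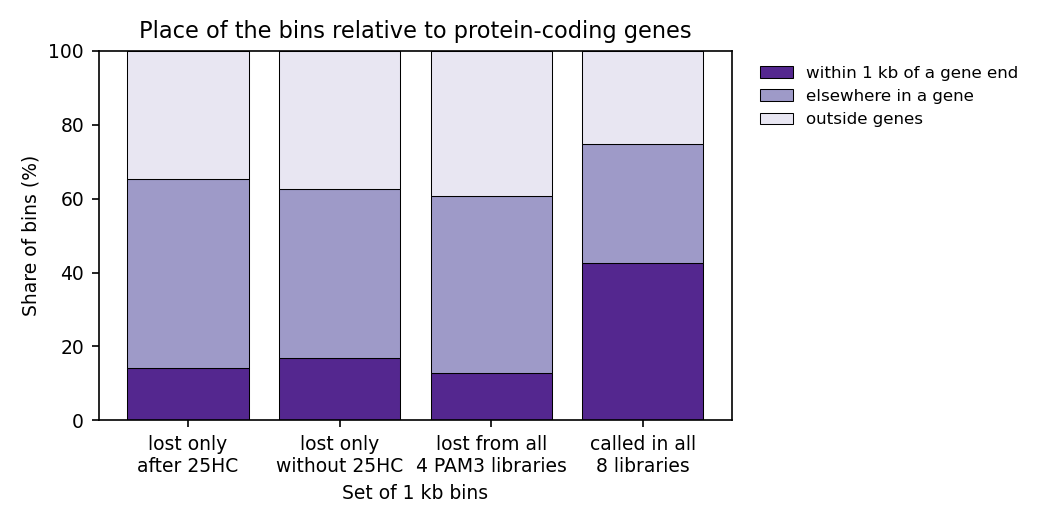
Share of bins (vertical axis, percent) within 1 kb of a gene end, elsewhere in a gene and outside genes, for 4 sets of bins. Members (lost only after 25HC) and both other sets of lost bins have 12.9% to 16.9% near a gene end, and bins called in all 8 libraries have 42.5%.

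The longest rows of neighbouring members had 3 bins, and there were 16 of them. Rows of this equal length were ranked by covered bp after PAM3 minus that after 25HC then PAM3. The rows named here were thus picked by that difference. The clearest lay 811 bp from Tmem176b, which encodes a membrane protein of macrophages and dendritic cells, at chr6:48830001-48833000. Its 3000 bp were wholly covered in each of the 6 libraries without the combination and not at all in either library of 25HC then PAM3, whose nearest peaks were 7157 and 14012 bp away. Inside Pdcd1lg2, the gene of the checkpoint ligand PD-L2, chr19:29418001-29421000 was covered over 2929 and 2886 bp in the untreated libraries, 2873 and 2989 bp after 25HC, 2797 and 3000 bp after PAM3, and 0 bp in both libraries of 25HC then PAM3. The window of Pdcd1lg2 also held 2 converse bins, so loss was not uniform over that gene. In Fgd4, an exchange factor for the GTPase Cdc42, the row at chr16:16572001-16575000 held 3000 and 2651 bp untreated, 2668 and 2659 bp after 25HC, 2676 and 2686 bp after PAM3, and 0 bp in both others.

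Some rows kept a part of their coverage or differed between the mice. In Maco1, the gene of macoilin, chr4:134836001-134839000 was covered over 3000 bp in all 4 libraries without PAM3, 2968 and 2941 bp after PAM3, and 255 and 240 bp after 25HC then PAM3. Rows in Wdfy2, an endosomal protein, and Rnf216, a ubiquitin ligase, likewise had a peak of both 25HC then PAM3 libraries touching them. The row 80338 bp from Rgs2, a regulator of G protein signalling, was covered over 3000 bp in PAM3 of mouse A and 0 bp in that of mouse B. A row in Aff1, a scaffold of the super elongation complex, had 0 bp in PAM3 of mouse A and 3000 bp in that of mouse B. These last rows are members through a single PAM3 library.

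Gene starts in member bins numbered 116, of 7541 genes with a start in one of the 39826 bins. For 58 of the 116 both PAM3 libraries were called, and for 27 of these the bin had 0 bp in both 25HC then PAM3 libraries, 26 without predicted genes. Prkaca, Rasa2 (which switches off Ras), Nudcd3, Pgap3 (which remodels GPI anchors), Golph3 (a Golgi membrane protein), Zbed4 and Yars2 (the mitochondrial tyrosyl tRNA synthetase) each had 1000 bp in all 6 other libraries. Rpl6 had 1000 bp in 5 of them and 995 bp in PAM3 of mouse B. Bach1 had 1000 bp in the 4 libraries without PAM3, 943 and 980 bp after PAM3 and 0 bp after 25HC then PAM3; it is shown above with its promoter.

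The start bin of Prkca, protein kinase C alpha, was covered over 1000 bp in the 4 libraries without PAM3 and 969 and 975 bp after PAM3. That of Ppp1r12c, a subunit of myosin phosphatase, had 867 and 967 bp after PAM3, and that of Strada 967 and 1000 bp. At the Clec12a start, chr6:129350001-129351000, the 4 libraries without PAM3 had 1000 bp, PAM3 had 539 and 573 bp and 25HC then PAM3 had 0 bp. Peaks of 25HC then PAM3 lay 31 and 62 bp from that bin, so at Clec12a a neighbouring peak remained and its edge stopped short of the bin. The nearest peaks to the Golph3 start were 106554 and 74527 bp away, and to the Prkca start 119334 and 119251 bp away. Of the 116 genes, 13 had another annotated start in a bin called after 25HC then PAM3.

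**Figure D5:**
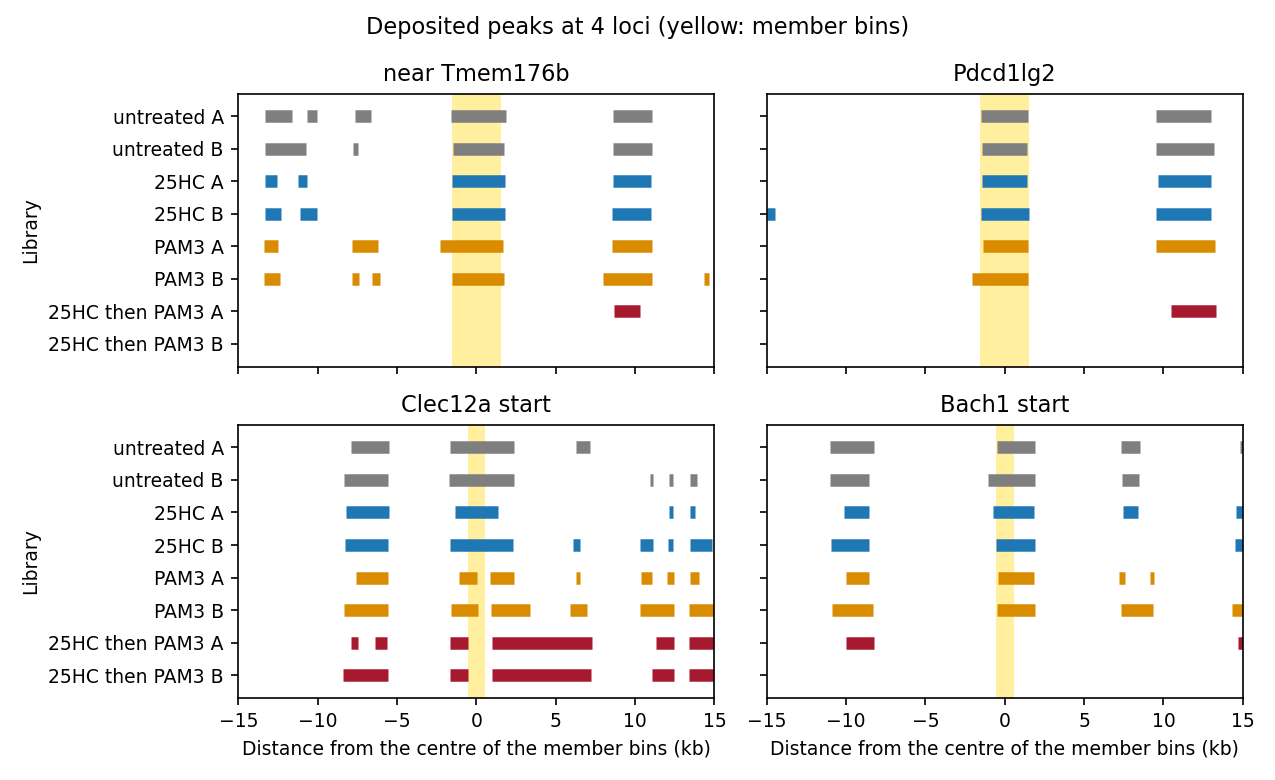
Deposited peaks (bars) in each library (rows) at 4 loci, against distance from the centre of the member bins in kb (horizontal axis, 15 kb to each side), with the member bins in yellow. Near Tmem176b, in Pdcd1lg2 and at the starts of Clec12a and Bach1, each of the other 6 libraries has a peak over the member bins and the 25HC then PAM3 libraries have 0 bp there.

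Other starts at 0 bp after 25HC then PAM3 were picked after their values were seen. Axl, a receptor for the clearance of dying cells, had 1000 bp in both untreated libraries, 948 and 1000 bp after 25HC, and 536 and 1000 bp after PAM3. Il4, the cytokine of type 2 immunity, had 730 and 718 bp untreated, 719 and 709 bp after 25HC, and 696 and 738 bp after PAM3. H2-Q7, a nonclassical class I gene, had 790 to 973 bp in the 6 libraries, and its near-identical neighbours make its reads uncertain. With peaks of −log10 q of at least 5 alone, 3 of the 26 named starts and 2 of the 12 named rows remained in a member bin.

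Members were spread thinly over genes. Of 12568 protein-coding genes with any of the 39826 bins in the gene or 5 kb around it, 1846 (14.7%) had a member, and 1439 of these had 1. Genes with a member had a median of 4 of these bins, against 2 for genes without a member. Rnf216 had the most, 8 of its 13 bins, followed by Aff1 with 7 of 14 and Dtnb, which encodes beta-dystrobrevin, with 6 of 14. Of these members, 4 at Rnf216, 2 at Aff1 and 5 at Dtnb were called in both PAM3 libraries. Those that also had 0 bp in both 25HC then PAM3 libraries numbered 1, 2 and 4. Ccdc47 had 4 of 5 bins, Camk1, a calcium and calmodulin dependent kinase, 4 of 5, and Tecpr2, an autophagy protein, 4 of 6. The windows of Ccdc47 and Strada overlap and share a member.

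Cmah, which makes the sialic acid that humans lack, had 5 members among 15 bins. Called peaks in its window summed to 32477 and 30778 bp in the untreated libraries, 23581 and 23072 bp after 25HC, 11154 and 13863 bp after PAM3, and 7144 and 3491 bp after 25HC then PAM3. Every treated library of Cmah was thus below both untreated ones, 25HC alone included. The Tecpr2 window summed to 7675 and 7392 bp untreated, 7380 and 7473 bp after 25HC, 7340 and 10644 bp after PAM3, and 3352 and 2530 bp after 25HC then PAM3, where the last group alone lay below the rest. Ccdc47 ran from 4105 to 6033 bp in the 6 other libraries and had 2305 and 1903 bp after 25HC then PAM3. For Rnf216 the sums were 7110 and 9287 bp after 25HC then PAM3, below the 13450 to 21587 bp of the other 6 libraries.

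The Toll-like receptor and MyD88 list had members at 5 of its 22 genes, in 5 of 85 bins (5.88%, against 7.48% over all bins). The bin 752 bp outside Tlr5, the flagellin receptor, had 843 and 809 bp untreated, 716 and 737 bp after 25HC, 585 and 538 bp after PAM3 and 0 bp in both of the last group. That of Traf6, the ubiquitin ligase downstream of MyD88, had 839 and 882 bp untreated, 543 and 792 bp after 25HC, 845 and 724 bp after PAM3, and 343 and 300 bp after 25HC then PAM3. Tlr4, the receptor of lipopolysaccharide, had 1 member and 3 converse bins, so it stood on both sides. Among the 27 cytokine and chemokine genes of the list, Il10 alone had members, 2 of its 4 bins. The list did not hold Il4 or Tnfsf14, whose starts also lay in member bins.

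Il10 encodes the cytokine that restrains macrophage activation. Its bin chr1:131020001-131021000, inside the gene, was covered over 1000 bp in all 6 other libraries and 0 bp in both libraries of 25HC then PAM3. The neighbouring bin chr1:131019001-131020000, which holds a gene end, also had 1000 bp in those 6 libraries, and 438 and 382 bp after 25HC then PAM3. Over the whole window Il10 kept 2718 and 2594 bp after 25HC then PAM3, against 3496 to 5724 bp elsewhere, so the called length at Il10 was lowest in these libraries but not 0. The NF-kB list had members at 3 of 23 genes (Nfkb1, Tnip3 and Ikbke), in 4 of 91 bins (4.40%).

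Liver X receptor targets and cholesterol efflux genes had members at 7 of 25 genes, in 10 of 126 bins (7.94%, against 7.48% over all bins). Rxra, the partner receptor of the liver X receptors, had 3 members among 13 bins, and both bins of Abcg8, a subunit of a sterol exporter, were members. Cd5l, a secreted liver X receptor target of macrophages, had a member with 1000 and 851 bp untreated, 851 and 1000 bp after 25HC, 836 and 1000 bp after PAM3, and 71 and 85 bp after 25HC then PAM3. At the start of Apoe, the lipid carrier, all 4 libraries without PAM3 had 1000 bp, PAM3 had 919 and 1000 bp and 25HC then PAM3 had 378 and 408 bp. The cholesterol synthesis and SREBP list had 0 members at 23 genes and 49 bins, and 3 converse bins. The interferon-stimulated genes had 0 members at 25 genes and 54 bins, and also 3 converse bins.

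Antigen presentation and costimulation had the highest share of the 16 lists, with members at 7 of 20 genes in 9 of 69 bins (13.0%). Alternative activation followed with 5 of 15 genes and 9 of 80 bins (11.3%). The shares over all were 14.7% of genes and 7.48% of bins. Some of the antigen list's 9 bins lay near the limit. At H2-DMa, PAM3 had 486 and 509 bp and 25HC then PAM3 474 and 487 bp. At Tapbp they had 498 and 539 bp against 437 and 396 bp. The antigen and alternative activation lists held 2 and 6 converse bins (2.9% and 7.5%, against 3.81% over all bins). Alternative activation was thus above the share over all bins for members and for converse bins alike. Of its 9 members, 4 lay at Pdcd1lg2. No test was made of these shares. Ciita, the master activator of class II genes, had a member 4014 bp outside the gene with 981 and 931 bp untreated, 946 and 931 bp after 25HC, 394 and 1000 bp after PAM3, and 358 and 0 bp after 25HC then PAM3. Its whole window went the other way, with 2433 and 2097 bp after PAM3 and 5260 and 7053 bp after 25HC then PAM3. Cd274, the gene of PD-L1, had a member with 927 and 896 bp untreated, 885 and 931 bp after 25HC, 824 and 831 bp after PAM3 and 0 bp in both of the last group, while its window had 9165 bp in 25HC then PAM3 of mouse A and 0 bp in that of mouse B. The 2 mice therefore disagreed over Cd274 as a whole.

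Stat6, the transcription factor of interleukin 4 signalling, had a member with 1000 bp in the 4 libraries without PAM3, 1000 and 871 bp after PAM3 and 0 bp after 25HC then PAM3. The mannose receptor gene Mrc1 had 2 members, 1 of them with 866 and 893 bp untreated, 779 and 1000 bp after 25HC, 1000 and 843 bp after PAM3 and 0 bp in the last group. Over the whole Mrc1 window the 25HC then PAM3 libraries had 25908 and 22176 bp, within the 19340 to 34248 bp of the other 6. Macrophage identity genes had members at 11 of 38 genes and 14 of 194 bins (7.22%). Bach1 was the fullest case, since both of its bins were members, and the second had 1000 bp in all 6 other libraries and 0 bp after 25HC then PAM3. Mitf, a regulator of lysosome genes, had a member with 1000 bp without PAM3, 814 and 990 bp after PAM3 and 0 bp after 25HC then PAM3. The whole Mitf window was not lower, with 17187 to 23876 bp without PAM3, 30629 and 38263 bp after PAM3, and 25998 and 29916 bp after 25HC then PAM3. Between C1qc and C1qa, which encode chains of complement C1q, a member 65 bp from C1qc and 1916 bp from C1qa had 1000 and 947 bp untreated, 1000 and 683 bp after 25HC, 1000 bp in both PAM3 libraries and 0 bp in the last group.

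The other lists were at or under the share over all bins. Chromatin regulators had members in 11 of 168 bins (6.55%), integrins and cytoskeleton in 8 of 138 (5.80%), the cell cycle in 5 of 88 (5.68%), lysosome and proton pump genes in 3 of 85 (3.53%) and glycolysis in 1 of 70 (1.43%, at Bnip3). In Ccnd1, the gene of cyclin D1, and Itgb5, integrin beta 5, a member had 1000 bp in all 6 other libraries and 0 bp after 25HC then PAM3. The housekeeping list had 2 of 52 bins (3.85%), and the Eef2 bin, 631 bp outside the gene of an elongation factor, showed the same 1000 bp and 0 bp. Genes silent in macrophages had 0 of 6. Lists of this size rest on few bins, and they were chosen with earlier results of these data known.

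The promoters of the 116 starts in member bins had fewer CpG than the starts in all 39826 bins. Starts in bins lost from all 4 libraries with PAM3 shared this trait, and starts in converse bins did not. Over 300 bases they had a median GC content of 57.7% and 15 CpG, against 62.0% and 22 CpG for 7959 starts in the 39826 bins and 56.3% and 13 CpG for all 18743 starts. Promoters with 5 CpG or fewer made up 19% of the 116, 6.07% of the 7959 and 32.4% of all. The 66 starts in bins lost from all 4 libraries with PAM3 had a median of 13 CpG and 28.8% with 5 or fewer, and the 96 starts in converse bins had 23 CpG and 7.29%. AP-1 matches were in 11 of the 116 (9.48%, against 4.52% of the 7959 and 7.20% of all) and C/EBP matches in 15 (12.9%, against 8.03% and 10.4%). PU.1 matched in 4 (3.45%, against 3.56% and 3.22%), the E-box in 12 (10.3%, against 10.7% and 7.80%), NF-kB in 3 (2.59%, against 5.42% and 4.86%) and the interferon response element in 4 (3.45%, against 3.42% and 3.44%). The liver X receptor element matched in 0 of the 116 and in 0.0480% of all. The sequences of the distal members, which are most of them, were not analysed here.

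Member bins also held the hairpins of Mir149, Mir1953 and Mir203, whose mature sequences are given from RefSeq with the seed, bases 2 to 8, in capitals, to show that they share none.
miR-149-5p: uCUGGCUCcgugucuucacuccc
miR-149-3p: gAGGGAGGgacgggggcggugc
miR-1953: uGGGAAAGuucucaggcuucug
miR-203-5p: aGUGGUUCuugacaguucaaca
miR-203-3p: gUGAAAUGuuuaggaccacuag
The Mir203 bin was covered over 1000 bp in both untreated libraries, 501 and 1000 bp after 25HC, 348 and 945 bp after PAM3, and 0 and 280 bp after 25HC then PAM3. The Mir149 bin had 848 and 824 bp untreated, 610 and 632 bp after 25HC, 625 and 587 bp after PAM3, and 285 and 0 bp after 25HC then PAM3. The antisense hairpin of miR-203b lies in the same bin as Mir203. Peaks carry no strand, so they do not tell which of the pair they belong to, and no RNA was measured.

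For 25HC against untreated, both without PAM3, called length per gene window was compared with limma on the log2 of called bp plus 500 bp. Of 14589 genes tested, 5 passed at a Benjamini-Hochberg adjusted p under 0.05 (0.0343%), 1 higher and 4 lower after 25HC, and 678 (4.65%) had an unadjusted p under 0.05. The member rule asks for a call in all 4 of these libraries, so the values of genes with a member are a description and no test of them. Of 1841 such genes, 0 passed in limma and 70 (3.80%) had an unadjusted p under 0.05. Of 10677 genes with a called bin and no member, 0 passed in limma and 428 (4.01%) had one, so the 2 kinds of gene stood close together. The median log2 change was −0.03 with a member and 0.02 without. With the mouse as a block, 0 of the 14589 genes passed in limma and 646 had an unadjusted p under 0.05.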

How the data were processed

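Acetyl-H4 ChIP-seq libraries of 8 macrophage cultures were analysed from their peak lists (GRCm38/mm10). Per the submitters' processing notes, reads were aligned with GSNAP and peaks called with MACS2 2.1.0. Not given in the sources used here are the control, the thresholds and the read filters. Each list holds, as deposited by the authors, coordinates, a fold enrichment ratio, −log10 of p and q, and a score (10 times −log10 q, cut to a whole number). The fold ratio and −log10 q rank peaks within their own list alone. Lists are per library, and no counts were used, so depth is unknown.

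The members and gene lists were chosen with earlier results of these data known. Genes were named by 4 rules. The first 2 took 12 of the 16 longest rows of members and the 20 genes with most members. Ties, as among these rows of equal length, went to the larger covered bp after PAM3 minus that after 25HC then PAM3. The third took up to 15 starts called in both PAM3 libraries with 0 bp in both of 25HC then PAM3. The last took up to 6 genes for each of 16 lists. Gene windows were RefSeq protein-coding genes with 5 kb on each side. Called length was tested with limma 3.58.1 in R 4.3.3 (log2 of bp plus 500 bp, library medians subtracted, mean of at least 500 bp, all 4 groups in 1 fit, Benjamini-Hochberg). The script was tested on simulated data. The labels give the same mouse, A or B, in each group, which pairs the libraries, though deviations of same-mouse libraries correlated by −0.0170 to 0.0304. Alternatives changed the bp limit, bin position, peak threshold, peak number or covered length, and left out libraries. Within-mouse counts and the 0 bp limit were added after seeing the data. Tools were Python 3.11.15, numpy 2.4.6 and pandas 2.3.3.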

Additional observations from a re-analysis of the deposited data

How the results depend on the processing

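With both mice, members outnumbered converse bins under the 8 alternatives that kept every library, by a ratio of 1.28 (peaks of −log10 q of at least 5) to 2.44 (0 bp required). With −log10 q of at least 5 there were 1846 members, of which 532 (17.9% of the 2977) were the same bins, and the gene-end share was 35.5%. Requiring both keeping libraries left 1399 members and 712 converse bins, and requiring 0 bp left 1119 and 459, with a gene-end share of 10.5%. That share was 11.4% with a limit of 250 bp, 15.5% with 750 bp, 12.8% with bins shifted by 500 bp, 18.2% with libraries trimmed to equal covered length, 9.81% within 500 bp of a gene end and 28.1% within 5 kb. Leaving out a library gave 1864 members (without PAM3 of mouse B) to 5649 (without 25HC then PAM3 of mouse B), 1031 to 4625 converse bins in the reverse order, and shares of 13.3% to 19.6%; the rule then asks less of the group with 1 library. Within mouse A there were 4833 members and 4802 converse bins (16.6% of members near a gene end), and with the same covered length 5594 and 3361 (22.3%). Within mouse B there were 5880 and 3782 (18.7%), and 6652 and 6049 (28.3%) with the same covered length. In limma, 25HC against untreated gave 0 genes with the mouse as a replicate block and 0 with −log10 q of at least 5. Leaving out a library gave 0 to 97 genes, and 0 to 1 of the genes with a member; the lone library is then assumed to vary like the other groups. Depth is unknown, so bins near the limit are the least certain.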
